A study of Rattus norvegicus with 10 samples.

Results

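Granins and neuronal pentraxins are secreted or synaptic proteins, and the RNA of 9 of them was followed here across 5 groups of rat oligodendrocyte lineage cells. They were the 6 granins Scg2, Scg3, Scg5, Vgf, Chga and Chgb and the 3 pentraxins Nptxr, Nptx1 and Nptx2, among 14561 genes with a symbol and 23487 genes in the count table. All 9 had counts in every library and passed the filter on low counts in every comparison. Nptxr and Scg2 were picked from these data for their rise with a miR-145 inhibitor in progenitors, so their values in that comparison are a description and carry no test. The other 7 belong to the same families.

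RNA was sequenced from primary Sprague-Dawley rat cells in 10 libraries, 2 for each of 5 groups. Oligodendrocytes (OLs) had been given synthetic mimics at 30 nM, either miR-145, miR-145 together with miR-219, or the scrambled miR-ctl, and were collected 5 days after transfection. Oligodendrocyte progenitors (OPCs) had been given 30 nM of anti-miR-145, which blocks miR-145, or of the scrambled anti-miR-ctl, and were collected after 24 h. OPCs were kept with fibroblast and platelet-derived growth factors, and OLs with triiodothyronine and ciliary neurotrophic factor. All cells came from mixed glial cultures of the cortex of P1 to P3 pups, from which progenitors were shaken off, so other glia can remain in them. In the OL miR-145 group a treatment label adds miR-219, which the titles do not, and the methods name a lentivirus where the labels name mimics. For primary cultures the study counts as a replicate an enriched culture from a single mouse. What a replicate of these rat cultures was is not said. Whether libraries with the same replicate number in different groups share a culture is not said.

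Granins are acidic proteins that condense in the trans-Golgi network and fill dense-core vesicles, the granules from which neurons and endocrine cells release peptides on a calcium signal. Several of them are themselves cut by prohormone convertases into peptides. Neuronal pentraxins form multimers at excitatory synapses, where they gather AMPA-type glutamate receptors, and OPCs are known to carry such receptors and to receive synapses from neurons.

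The mature miR-145-5p shows what the mimic adds and the inhibitor binds, and the capitals mark its seed, bases 2 to 8. Promoter windows of 300 bases, 250 before and 50 after the annotated start, are shown for Scg2, Vgf and Chgb, the granins that differed most with the inhibitor, and for Nptx2, which was not called. Capitals in them mark the cAMP response element TGACGTCA, or its shorter form TGACG read on either strand. Sequences are from RefSeq on GRCr8, and the counts were made on Rnor6.0, so the coordinates belong to the former only. The miRNA lies at chr18:57370033-57370055, minus strand. The windows of Scg2 (chr9:88256817-88257116), Vgf (chr12:25276971-25277270) and Nptx2 (chr12:15161996-15162295) are on the minus strand and that of Chgb (chr3:140496462-140496761) on the plus strand.
rno-miR-145-5p: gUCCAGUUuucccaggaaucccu
Scg2: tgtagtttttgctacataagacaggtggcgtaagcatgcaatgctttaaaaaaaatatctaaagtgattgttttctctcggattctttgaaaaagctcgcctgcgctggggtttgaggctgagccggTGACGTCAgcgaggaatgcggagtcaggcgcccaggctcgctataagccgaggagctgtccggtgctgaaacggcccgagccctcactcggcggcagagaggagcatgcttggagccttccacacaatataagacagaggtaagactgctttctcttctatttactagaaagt
Vgf: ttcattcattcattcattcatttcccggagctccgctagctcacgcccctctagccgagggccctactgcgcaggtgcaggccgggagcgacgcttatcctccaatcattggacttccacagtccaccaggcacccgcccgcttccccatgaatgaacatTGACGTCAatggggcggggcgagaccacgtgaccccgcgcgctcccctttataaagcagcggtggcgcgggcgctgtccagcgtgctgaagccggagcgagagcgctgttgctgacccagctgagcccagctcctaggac
Chgb: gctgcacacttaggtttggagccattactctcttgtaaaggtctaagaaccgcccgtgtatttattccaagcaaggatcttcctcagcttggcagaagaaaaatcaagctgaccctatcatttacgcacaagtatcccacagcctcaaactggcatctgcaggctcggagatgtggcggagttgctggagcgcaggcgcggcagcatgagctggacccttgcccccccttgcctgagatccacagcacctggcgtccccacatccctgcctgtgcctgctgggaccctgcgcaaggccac
Nptx2: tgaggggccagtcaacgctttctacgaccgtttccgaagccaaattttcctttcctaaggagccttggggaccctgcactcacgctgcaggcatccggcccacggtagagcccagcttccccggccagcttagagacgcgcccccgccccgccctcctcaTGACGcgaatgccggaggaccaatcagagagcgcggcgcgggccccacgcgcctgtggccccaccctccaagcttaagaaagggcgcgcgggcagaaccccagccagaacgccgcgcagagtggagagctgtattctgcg

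Promoters were given for 6 of the 9 genes, those of Nptx2, Scg2, Scg3, Scg5, Vgf and Chgb. The full element TGACGTCA stood in 2 of the 6, starting 123 bases before the start of Scg2 and 90 bases before that of Vgf. Over all 33365 promoters of this length, 611 or 1.83% held it. The shorter TGACG, which the full element contains, stood in 5 of the 6 and in 21.2% of all promoters. Chgb had neither form in its window. An E-box, CACGTG, stood 65 bases before the start of Vgf, in none of the other 5 windows, and in 6.43% of all promoters. A match of letters is a description of the window and not evidence of binding.

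Library totals ran from 33505668 to 42684176 estimated counts, and levels are given as CPM, counts scaled to a common library size, after TMM normalization over the 10 libraries. The labels were set against lists of marker genes. Summed markers of maturing OLs, such as Mbp and Mag, ran from 9940 to 21930 CPM in the OL libraries and from 909.3 to 1094 CPM in the OPC libraries. Those of OPCs, such as Pdgfra and Cspg4, ran from 6282 to 8465 CPM in OPCs and from 3059 to 3755 CPM in OLs. Astrocyte markers summed to between 5404 and 13160 CPM in OLs and between 402.8 and 674.4 CPM in OPCs, so the OL libraries also held RNA of astrocyte markers. In bulk RNA, fewer cells of a type and less RNA per cell cannot be told apart.

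Given the inhibitor, OPCs held far more RNA of the receptor pentraxin and of 3 granins than OPCs given its control. Nptxr, the membrane-bound pentraxin that anchors the secreted ones, stood at 3210 and 3089 CPM with anti-miR-145 and at 257.6 and 295.4 CPM with anti-miR-ctl. The inhibitor libraries were both far above the controls, by 11.5-fold, a log2 fold change of 3.52 ± 0.11 (SE, n = 2 and 2). Scg2, the precursor of the peptide secretoneurin, stood at 665.1 and 561.9 CPM against 31.25 and 35.79 CPM. Its 18.5-fold difference was a log2 fold change of 4.21 ± 0.14 and ranked 14 from the top among 15496 genes, where that of Nptxr ranked 27. These are the values for which both genes were picked.

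Of the 7 genes that were not picked, 3 were called higher and 1 lower, where calls are at a Benjamini-Hochberg adjusted p under 0.05 in edgeR's quasi-likelihood test over all genes. With so many genes called in this comparison, 4348 of 15496 or 28.1%, nothing is read from the share of the 7. Their median log2 fold change was 0.08, against 0.0 for all genes.

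Vgf, a neurotrophin-inducible precursor of several secreted peptides, stood at 576.1 and 449.6 CPM with the inhibitor and at 75.79 and 82.21 CPM with the control. It rose 6.57-fold, by 2.72 ± 0.14 on the log2 scale (adjusted p = 6.45e-05, edgeR). Chgb, chromogranin B, a core protein of the granule matrix, stood at 48.61 and 37.71 CPM against 9.029 and 10.58 CPM. It rose 4.46-fold, by 2.16 ± 0.16 (adjusted p = 0.000168, edgeR). Both kept their call when any of the 4 libraries was left out. Vgf ranked 53 and Chgb 112 of the 15496 genes by fold change.

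Nptx1, a secreted pentraxin, was scarce in every library, with 120 and 95 counts in the inhibitor libraries and 49 and 48 counts in the controls. Its level was 2.979 and 2.157 CPM against 1.146 and 1.315 CPM, so the groups did not overlap, as for 67.8% of all genes tested. Nptx1 rose by 1.08 ± 0.26 on the log2 scale (adjusted p = 0.0231, edgeR). That call was lost without replicate 1 of the control (adjusted p = 0.1, edgeR) and without its replicate 2 (adjusted p = 0.0502, edgeR).

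The remaining 4 genes moved little or the other way. Scg3, which tethers chromogranin A to the granule membrane, stood at 85.17 and 92.04 CPM with the inhibitor and at 105.8 and 116.7 CPM with the control, and fell by 0.31 ± 0.09 on the log2 scale (adjusted p = 0.0416, edgeR). Its call was lost without replicate 1 (adjusted p = 0.0993, edgeR) or replicate 2 (adjusted p = 0.326, edgeR) of the control, and with all 5 groups in a single edgeR fit (adjusted p = 0.353). Scg5, the chaperone of the convertase Pcsk2, stood at 1.291 and 0.9308 CPM against 1.824 and 1.946 CPM, a log2 fold change of -0.75 ± 0.27 that was not called (adjusted p = 0.0796, edgeR). It was called lower without replicate 1 of the inhibitor group (adjusted p = 0.0277, edgeR).

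Nptx2, the secreted pentraxin that neurons induce with activity, stood at 89 and 86.54 CPM with the inhibitor and at 92.93 and 92.24 CPM with the control. The inhibitor libraries were both lower, but by a log2 fold change of only -0.06 ± 0.08 (adjusted p = 0.597, edgeR). Chga, chromogranin A, the other main matrix protein of the granule, overlapped between the groups, at 3.327 and 3.156 CPM against 2.807 and 3.398 CPM. Its log2 fold change was 0.08 ± 0.19 (adjusted p = 0.784, edgeR). Of the chromogranins, Chgb was called and Chga was not, and the difference between these 2 changes was not tested.

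**Figure D1:**
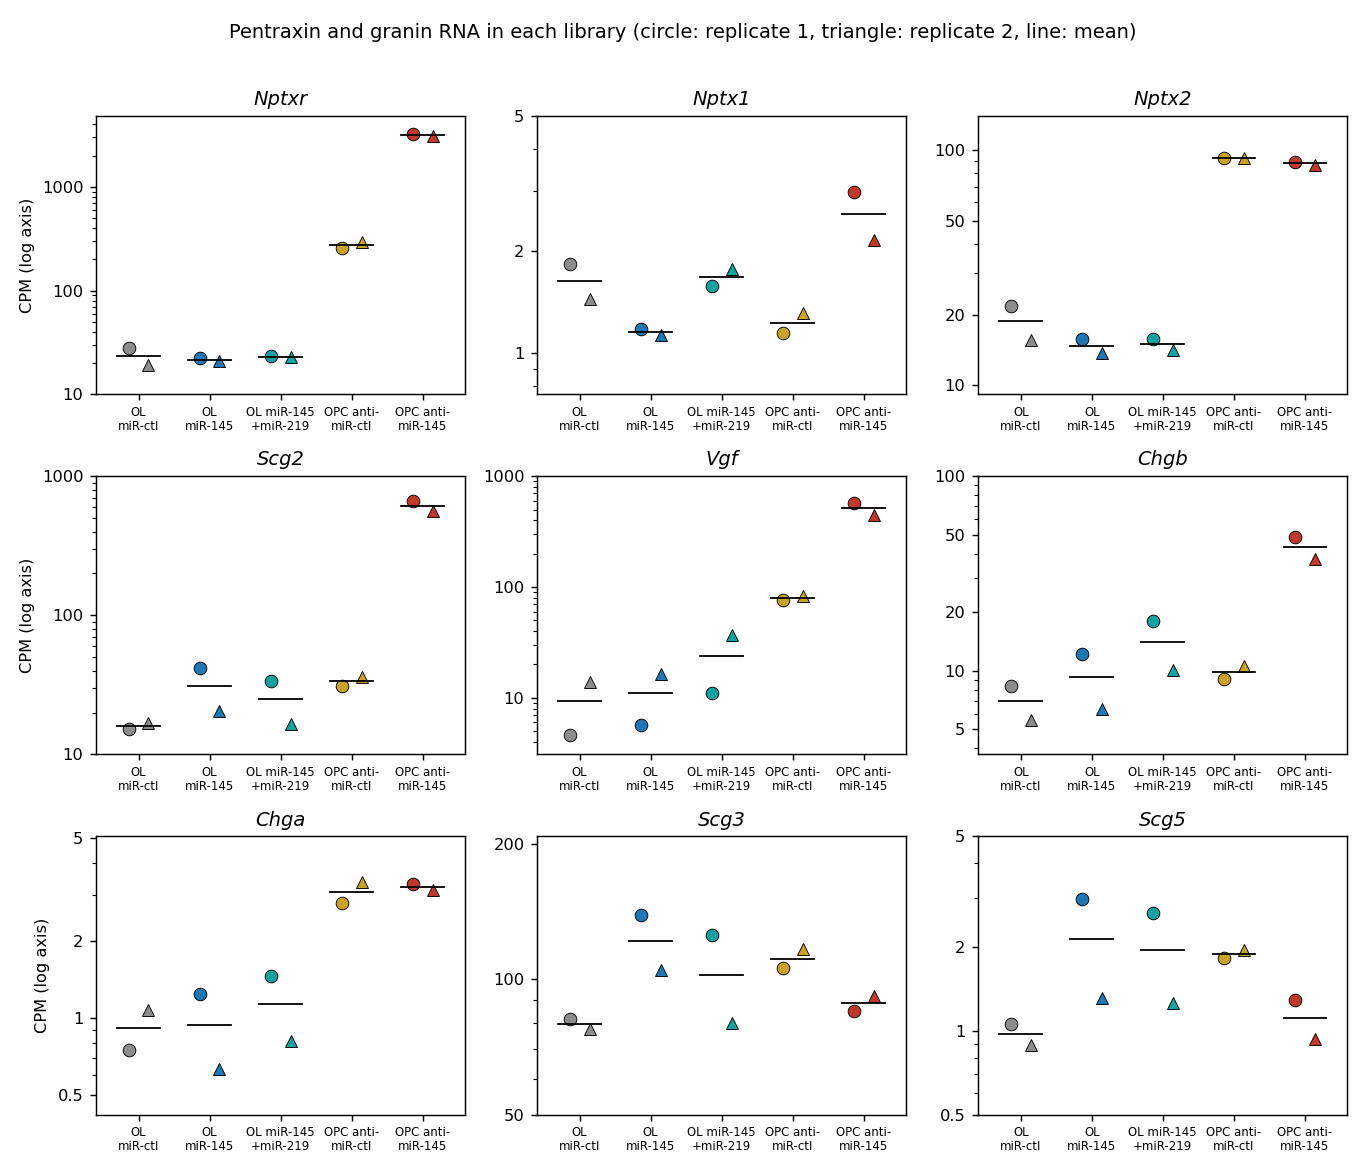
Level of each gene in CPM (log axis, a scale of its own per gene) in each of the 10 libraries, with circles for replicate 1, triangles for replicate 2 and a line at the mean of the 2. The OPC anti-miR-145 libraries stand above all others for Nptxr, Nptx1, Scg2, Vgf and Chgb, and among the OPC libraries below the controls for Scg3, Scg5 and, by little, Nptx2.

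Markers of other cells were read beside these values, in a comparison that called 28.1% of all genes. Neuronal markers summed to 789 and 1004 CPM in the inhibitor libraries and to 842.8 and 898.4 CPM in the controls, so the sums overlapped. Most of each sum was Map2 (469.2 and 611.5 CPM against 540.8 and 509.7 CPM) and Dcx (157.4 and 231.1 CPM against 248.8 and 229.4 CPM). Neither was called, and the sums say little of the other neuronal markers. Of the 11 neuronal markers tested, 5 were called higher with the inhibitor and none lower with edgeR: Tubb3, Nefl, Nefm, Rbfox3 and Gad2. Astrocyte markers summed to between 402.8 and 447.3 CPM with the inhibitor and between 636.1 and 674.4 CPM with the control, with 4 of 8 called lower but Gfap higher by 2.53 ± 0.13 on the log2 scale. Microglial sums overlapped, at 868.2 to 1075 CPM against 926.8 to 989.2 CPM, with 6 of 11 markers called higher and 4 lower. OPC markers summed higher with the inhibitor, at 7417 to 8465 CPM against 6282 to 6535 CPM. Of these, 4 of 7 were called higher, Olig1, Olig2, Pdgfra and Sox10, and 1 lower. That was Cspg4, with a log2 fold change of -0.56 ± 0.1. No neuronal, astrocyte or microglial marker with a symbol was at 0 in an OPC library, and the part of other cells in the changes above was not tested.

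The genes that work with granins were given by lists chosen with the members. For each list with the inhibitor, the share called over all genes is 28.1%, and nothing is read from the counts. Enzymes that cut and finish prohormones moved in both directions with the inhibitor, with 3 of 11 called higher and 5 lower and a median log2 fold change of -0.27, against 0.0 for all genes. Pcsk1, the convertase of the regulated secretory pathway, stood at 0.1489 and 0.2497 CPM with the inhibitor and at 2.058 and 2.357 CPM with the control. Both inhibitor libraries were lower, and it fell by 3.42 ± 0.34 on the log2 scale (adjusted p = 0.000519, edgeR).

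Pcsk2, its partner convertase, fell by 1.07 ± 0.23 (adjusted p = 0.0152, edgeR) and Qpct, which forms N-terminal pyroglutamate on peptides, fell by 0.57 ± 0.10 (adjusted p = 0.00583, edgeR). Pcsk5 and Cpd, the other genes of the list called lower, had log2 fold changes of -1.41 ± 0.38 (adjusted p = 0.0332, edgeR) and -0.50 ± 0.15 (adjusted p = 0.05 after rounding, edgeR), and are named to complete the count. Pam, which amidates peptides, rose by 0.69 ± 0.08, Cpe, the carboxypeptidase that trims them, by 0.46 ± 0.09, and Pcsk1n, a granin-like inhibitor of Pcsk1, by 0.59 ± 0.12 on the log2 scale.

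Machinery of the dense-core vesicle was called higher for 4 of 17 genes and lower for 2, with a median of 0.16. Ptprn, a membrane protein of the granule, rose from 301.6 and 302.8 CPM in the controls to 931.3 and 870.8 CPM, by 1.59 ± 0.09 on the log2 scale (adjusted p = 6.88e-05, edgeR). Syt4, a synaptotagmin of such vesicles, rose by 1.39 ± 0.10, and Slc18a2, a vesicular monoamine transporter, by 1.30 ± 0.13. Cadps2, a priming factor for exocytosis, fell by 0.91 ± 0.18.

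Peptides that share the granule as cargo were called higher for 6 of 11 genes and lower for 1, with a median of 0.99. Npy, neuropeptide Y, stood at 66.53 and 49.47 CPM with the inhibitor and at 7.274 and 7.015 CPM with the control, and rose by 3.04 ± 0.17 on the log2 scale (adjusted p = 7.26e-05, edgeR). Gal, galanin, rose by 3.65 ± 0.26, from a mean of 0.5096 CPM, and Calca, which encodes calcitonin and its related peptide, by 1.62 ± 0.15. Adm, adrenomedullin, a vasoactive peptide, rose by 1.96 ± 0.23. Tac1, the precursor of substance P, was the gene called lower, by a log2 fold change of -1.74 ± 0.28.

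AMPA receptor subunits and pentraxin partners were split, with 3 of 11 called higher, 3 lower and a median of -0.38. Among the subunits, Gria3 rose by 0.65 ± 0.10 and Gria1 fell by 0.76 ± 0.17 on the log2 scale. Gria2, at -0.38 ± 0.13 (adjusted p = 0.0684, edgeR), and Gria4, at -0.39 ± 0.12 (adjusted p = 0.0511, edgeR), were not called. Of the auxiliary proteins, Cnih2 rose by 0.41 ± 0.08 and Cacng4 fell by 0.55 ± 0.08. Adam17, a protease that cleaves the receptor pentraxin from the membrane, fell by 0.36 ± 0.08.

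Activity-regulated genes, several of them induced through cAMP response elements, were called higher for 2 of 11 and lower for 3, with a median of -0.05. Fos rose by 1.60 ± 0.08 on the log2 scale, whereas Arc fell by 1.54 ± 0.12, Nr4a1 by 0.77 ± 0.10 and Egr1 by 0.82 ± 0.12.

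**Figure D2:**
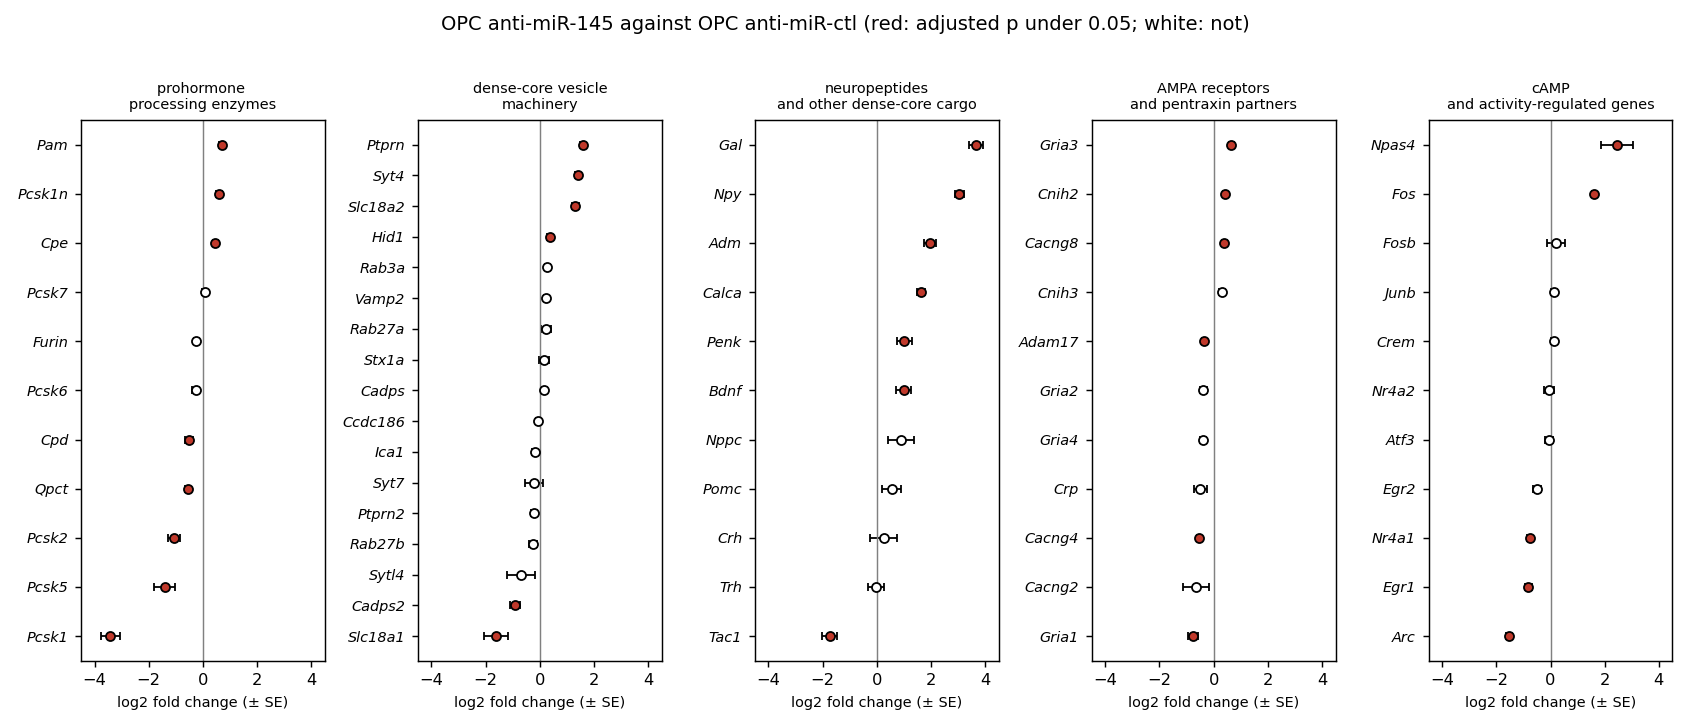
Log2 fold change with its SE for each tested gene of 5 lists in OPCs, anti-miR-145 against anti-miR-ctl (2 libraries each), with red points for an adjusted p under 0.05. Neuropeptides lie mostly to the right, up to 3.65 for Gal, the enzymes reach -3.42 at Pcsk1, and the other lists spread to both sides of 0.

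In the control groups, most of these genes were lower in OLs than in OPCs. Calls were made for 7 of the 9, all lower in OLs, in a comparison that called 9042 of 15721 genes or 57.5%. Their median log2 fold change was -1.07, against 0.01 for all genes. The cells also differed in the kind of oligonucleotide, in medium and in days of culture, and these cannot be told apart from the stage of the cells. The OPC controls are the same libraries as in the inhibitor comparison.

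Nptxr stood at 28.22 and 19.1 CPM in OL miR-ctl and was 11.7-fold lower than in the OPC controls, by a log2 fold change of -3.55 ± 0.21 (adjusted p = 0.000183, edgeR). Nptx2 stood at 21.84 and 15.6 CPM and was 4.95-fold lower, at -2.31 ± 0.17 (adjusted p = 0.000336, edgeR). Nptx1, at 1.834 and 1.443 CPM, was not called, with a log2 fold change of 0.41 ± 0.27 (adjusted p = 0.252, edgeR). Both OL libraries were below both OPC libraries for Nptxr and Nptx2, and above them for Nptx1. Of all genes tested, 81.7% did not overlap between these groups.

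Among the granins, Vgf stood at 4.623 and 13.97 CPM in OL miR-ctl and was 8.61-fold lower than in OPCs, by a log2 fold change of -3.11 ± 0.49 (adjusted p = 0.0044, edgeR). Chga was 3.41-fold lower, at 0.7538 and 1.075 CPM (log2 fold change -1.77 ± 0.29, adjusted p = 0.00494, edgeR). Scg2 was 2.1-fold lower, at 15.18 and 16.92 CPM (log2 fold change -1.07 ± 0.12, adjusted p = 0.00142, edgeR). The OL and OPC control libraries did not overlap for any of the 3, as for 81.7% of all genes tested.

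Scg3 and Scg5 differed less. Scg3, at 81.81 and 77.6 CPM in OLs, had a log2 fold change of -0.49 ± 0.09 (adjusted p = 0.00695, edgeR), and its call was lost without replicate 2 of the OPC controls (adjusted p = 0.0733, edgeR). Scg5, at 1.055 and 0.8905 CPM, had a log2 fold change of -0.95 ± 0.26 (adjusted p = 0.0269, edgeR), and lost its call with DESeq2 (adjusted p = 0.0733) and without either OPC control library (adjusted p = 0.126 and 0.159, edgeR). Chgb was not called, at 8.367 and 5.558 CPM in OLs and -0.49 ± 0.23 on the log2 scale (adjusted p = 0.125, edgeR). Without replicate 1 of the OL controls Chgb was called lower, by a log2 fold change of -0.81 (adjusted p = 0.00145, edgeR).

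**Figure D3:**
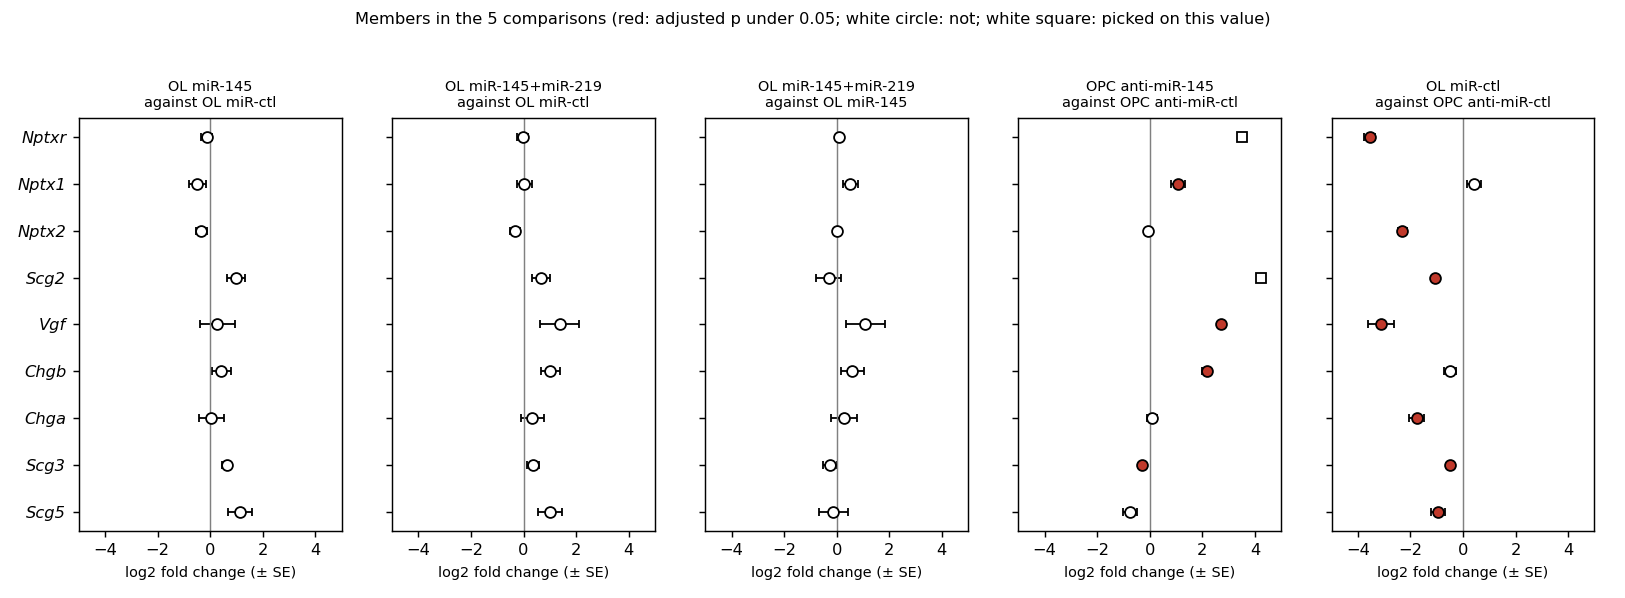
Log2 fold change with its SE (2 libraries a group) of the 9 genes in 5 comparisons, in red where the adjusted p was under 0.05, with white squares for the 2 genes picked on that comparison. With the inhibitor the genes spread from -0.75 for Scg5 to 4.21 for Scg2, the OL controls lie left of the OPC controls for all but Nptx1, and no point is red in the 3 mimic comparisons.

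Of the genes that work with granins, Pcsk1, Pcsk2, Pcsk1n, Cpe and Pam were not called between the control groups, with log2 fold changes from -0.20 for Cpe to 1.00 for Pcsk1. The convertase Pcsk6 was higher in OLs by 2.69 ± 0.13 and Qpct lower by a log2 fold change of -3.13 ± 0.25, and 3 of the 11 enzymes were called in all. Vesicle machinery was called for 15 of 17 genes, 10 higher in OLs and 5 lower, with a median of 0.51. Over all genes 57.5% were called, and nothing is read from the counts of the lists. Rab3a and Vamp2, which act in vesicle docking and fusion, were higher by 1.28 ± 0.10 and 0.71 ± 0.08.

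Peptide cargo was called higher in OLs for 6 of 11 genes and lower for 2, with a median of 1.24, where 57.5% of all genes were called. Gal and Npy were higher in OLs by 5.47 ± 0.42 and 2.08 ± 0.12 on the log2 scale, and Calca was lower, with a log2 fold change of -5.23 ± 0.27. Pentraxin partners were called lower for 6 of 12 and higher for 2, with a median of -0.54. Cnih2, at -2.56 ± 0.09, and Cacng8, at -3.96 ± 0.16, had the smallest p and were lower in OLs. Gria3 was lower in OLs, at -1.31 ± 0.20, and so was Gria4, at -1.32 ± 0.16, whereas Gria1 (0.23 ± 0.19) and Gria2 (-0.06 ± 0.22) were not called. Activity-regulated genes were called lower for 5 of 10 and higher for 2. Among those lower were Egr1 (-4.16 ± 0.18), Arc (-3.94 ± 0.18), Egr2 (-4.12 ± 0.25) and Nr4a1 (-2.65 ± 0.22), whereas Fos was higher (1.94 ± 0.22).

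Markers of other cells also differed in this comparison, in which 57.5% of all genes were called. Neuronal markers summed to 425.3 to 564.5 CPM in OL miR-ctl and 842.8 to 898.4 CPM in OPC anti-miR-ctl, with 8 of 11 called lower in OLs and 1 higher. Slc32a1, the vesicular GABA transporter of inhibitory neurons, was at 0 in both OL miR-ctl libraries and at 4.351 and 3.891 CPM in the OPC controls. Astrocyte markers summed to 5404 to 6423 CPM in OL miR-ctl against 636.1 to 674.4 CPM, with 7 of 8 called higher in OLs. Microglial markers summed to 389.2 to 578.5 CPM against 926.8 to 989.2 CPM, with 5 of 11 called lower in OLs, Itgam by a log2 fold change of -3.41 ± 0.19, and 1 higher. The part of neurons, astrocytes and microglia in the lower granins and pentraxins was not tested.

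In OLs edgeR, with no term for the replicate number, called no gene for the miR-145 mimic. In all, 0 of 15461 genes, or 0.0%, had an adjusted p under 0.05, the smallest being 0.158, while 2067 had an unadjusted p under 0.05 and DESeq2 called 649. Of the 9 genes, 2 had an unadjusted p under 0.05 and DESeq2 called 1, Scg3 (adjusted p = 0.0463). Their median log2 fold change was 0.27, against -0.01 for all genes. The libraries of the groups did not overlap for 4 of the 9, against 47.3% of all genes tested.

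Scg2 stood at 41.86 and 20.48 CPM with miR-145 and at 15.18 and 16.92 CPM with miR-ctl, so both mimic libraries were higher, with a log2 fold change of 0.96 ± 0.34 (adjusted p = 0.333, edgeR). Scg3 stood at 138.8 and 104.7 CPM against 81.81 and 77.6 CPM, higher in both, at 0.62 ± 0.16 (adjusted p = 0.217, edgeR). Scg5 stood at 2.971 and 1.313 CPM against 1.055 and 0.8905 CPM, also without overlap, at 1.13 ± 0.47 (adjusted p = 0.39, edgeR). Replicate 1 of miR-145 was the higher library in each of the 3, and without it the log2 fold changes were 0.36 for Scg2, 0.41 for Scg3 and 0.44 for Scg5. With a replicate term in the fit, an alternative only, all 3 were called higher.

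Nptx1 was lower in both mimic libraries, at 1.183 and 1.136 CPM against 1.834 and 1.443 CPM, with a log2 fold change of -0.49 ± 0.32 (adjusted p = 0.539, edgeR). Nptxr overlapped between the groups, at 22.21 and 20.83 CPM against 28.22 and 19.1 CPM (-0.13 ± 0.21 on the log2 scale, adjusted p = 0.816, edgeR). Nptx2, Vgf, Chga and Chgb also overlapped, with log2 fold changes of -0.34 for Nptx2, 0.04 for Chga, 0.27 for Vgf and 0.42 for Chgb. Nptxr, picked for its rise with the inhibitor in OPCs, was thus within the spread of the controls with the mimic in OLs. These comparisons differ in cells, medium and time, and Nptxr was 11.7-fold lower in OL miR-ctl than in the OPC controls. Neither comparison is a test of the other.

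With miR-145 and miR-219 together, no gene was called against miR-ctl either. The count was 0 of 15436 genes, or 0.0%, with edgeR, with 956 at an unadjusted p under 0.05 and 106 called by DESeq2, none of them among the 9. The groups did not overlap for 2 of the 9, against 36.7% of all genes. Chgb stood at 18.08 and 10.1 CPM, above both controls, with a log2 fold change of 1.02 ± 0.35 (adjusted p = 0.8, edgeR), the only one of the 9 with an unadjusted p under 0.05. Scg5 stood at 2.643 and 1.263 CPM, also above both, at 1.01 ± 0.45 (adjusted p = 0.814, edgeR).

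Vgf had the largest log2 fold change of the 9 there, 1.38 ± 0.75, but its libraries overlapped, at 11.04 and 37.02 CPM against 4.623 and 13.97 CPM (adjusted p = 0.815, edgeR). Its replicate 2 was the higher library in both groups, by 3.35-fold with both mimics and 3.02-fold with miR-ctl. With a replicate term in the fit, an alternative only, Vgf and Chgb were called higher. The other 6 had log2 fold changes of 0.66 for Scg2, 0.37 for Scg3, 0.33 for Chga, 0.03 for Nptx1, -0.03 for Nptxr and -0.32 for Nptx2, none of them called. Both mimic comparisons share the miR-ctl libraries, so their values for a gene are not independent.

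Set directly against miR-145 alone, the pair of mimics gave 0 of 15501 genes called, or 0.0%, with edgeR, where 228 had an unadjusted p under 0.05 and DESeq2 called 9, none of them among the 9 members. Vgf was again the farthest from 0 among the 9, at 1.09 ± 0.75 on the log2 scale, followed by Chgb at 0.60 ± 0.42 and Nptx1 at 0.52 ± 0.28. The rest lay closer to 0, with log2 fold changes of 0.28 for Chga, 0.10 for Nptxr, 0.02 for Nptx2, -0.13 for Scg5, -0.26 for Scg3 and -0.31 for Scg2. Without a replicate term every adjusted p of the 9 was 1 (edgeR), and with it, an alternative only, Vgf and Chgb were called higher.

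The 5 pathway lists held no called gene in any of the 3 mimic comparisons with edgeR. For miR-145 against miR-ctl, an unadjusted p under 0.05 was reached by 2 of 11 enzymes, 6 of 17 genes of vesicle machinery, 2 of 9 peptides, 3 of 12 pentraxin partners and 0 of 10 activity-regulated genes. DESeq2 called 1, 4, 1, 1 and 0 of these. Over all 15461 genes, 2067 had an unadjusted p under 0.05, and nothing is read from the counts of the lists. Gria1 had a log2 fold change of 1.62 ± 0.21 with miR-145 (adjusted p = 0.158, edgeR) and 1.31 ± 0.34 with both mimics (adjusted p = 0.8, edgeR). The other 8 enzymes and subunits named for every comparison lay between -0.70 and 0.58 in the 3 comparisons.

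Markers of astrocytes, microglia and fibroblasts or mural cells stood higher beside these values, with no call by edgeR. Other lists had medians below 0 with miR-145, of -0.39 for OPCs, -0.8 for endothelial cells and -0.23 for both neurons and maturing OLs. Above 0 were 2 of 7, 1 of 3, 4 of 10 and 2 of 7 of their markers, in that order. At an unadjusted p under 0.05 were 4, 2, 2 and 1, and DESeq2 called 2, 1, 0 and 0. All 8 astrocyte markers had a log2 fold change above 0 with miR-145, with a median of 0.87, and with both mimics, with a median of 0.55, and none was called with edgeR. At an unadjusted p under 0.05 they were 6 and 2, against 2067 of 15461 and 956 of 15436 over all genes, and DESeq2 called 4 and 1. Their sums were 8923 and 13160 CPM with miR-145, 6423 to 10890 CPM with both mimics and 5404 to 6423 CPM with miR-ctl. With miR-145, 11 of 11 microglial markers had a log2 fold change above 0, with a median of 0.61, though their sums overlapped at 383.9 to 981.2 CPM against 389.2 to 578.5 CPM. So did 4 of 4 fibroblast and mural markers tested, with a median of 1.86 and sums of 7.644 to 24.45 CPM against 3.685 to 3.719 CPM. Of the 7 listed, 5 had a symbol, and several had few counts. The sum of 24.45 CPM was that of replicate 2, where Col1a1 had 650 counts and Dcn 73, against 61 and 2 in replicate 1. At an unadjusted p under 0.05 were 2 microglial and 3 fibroblast or mural markers, and DESeq2 called 1 of each list. The part of these cells in the higher Scg2, Scg3 and Scg5 was not tested.

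The 2 replicates of the OL groups differed for several of these genes. Vgf was higher in replicate 2 than in replicate 1 of every OL group, by 3.35-fold with both mimics, 2.87-fold with miR-145 and 3.02-fold with miR-ctl. Of 15722 genes, 22 or 0.14% differed past 2-fold in the same direction in all 3 OL groups, on CPM + 1. Vgf was singled out after its values were seen.

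Chgb went the other way in all 3 groups, at 0.559, 0.52 and 0.664 of its replicate 1 level. Scg2 and Scg5 were lower in replicate 2 of both mimic groups, at 0.492 and 0.489 for Scg2 and at 0.478 and 0.442 for Scg5, but not so in miR-ctl, where the ratios were 1.11 and 0.844. Nptxr and Nptx2 stayed between 0.677 and 0.989 of their replicate 1 level.

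Cell type markers moved between the same libraries. Mbp was 1.71- to 2.11-fold and Mag 1.52- to 1.99-fold higher in replicate 2, as were the microglial C1qa (1.46 to 2.51) and Csf1r (1.58 to 2.43). The astrocyte genes Gfap and Slc1a3 were lower, at 0.627 to 0.871 and 0.437 to 0.623 of replicate 1. The astrocyte genes Gja1 and Aqp4 were lower in replicate 2 of the mimic groups only, at 0.448 to 0.59 and 0.557 to 0.79, with ratios of 1.01 and 1.11 in miR-ctl. The part of these cells in the difference between replicates was not tested.

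**Figure D4:**
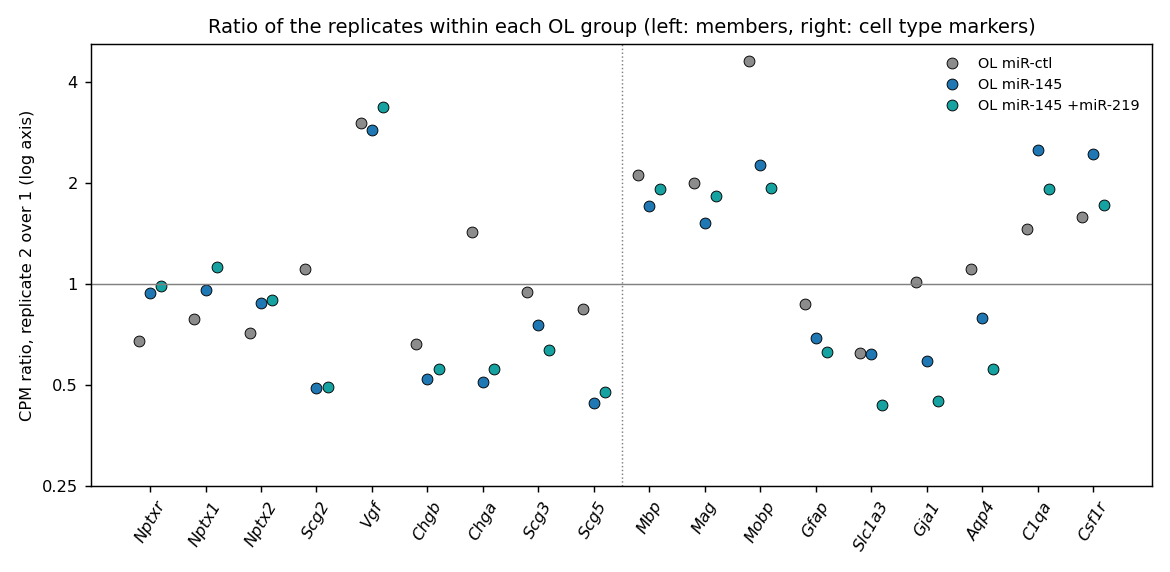
CPM in replicate 2 divided by CPM in replicate 1 (log axis) within each of the 3 OL groups, for the 9 genes on the left and for markers of maturing OLs (Mbp, Mag, Mobp), astrocytes (Gfap, Slc1a3, Gja1, Aqp4) and microglia (C1qa, Csf1r) on the right. Vgf stands near 3 in every group, with Mbp and Mag on the same side of 1, and Chgb, Gfap and Slc1a3 on the other, while Gja1 and Aqp4 lie below 1 in the mimic groups and just above it in miR-ctl.

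Over the 5 groups, the mean level of Nptxr was lowest in OL miR-145, then OL with both mimics and OL miR-ctl, and higher in OPC anti-miR-ctl and then OPC anti-miR-145. The libraries of OL miR-ctl overlapped with those of both mimic groups, and no OL library overlapped with an OPC library. Scg2 followed another order, since OPC anti-miR-ctl, at a mean of 33.52 CPM, lay within the range of the OL miR-145 libraries, and OPC anti-miR-145 stood apart from all others. For Scg3 the highest mean was that of OL miR-145, 121.8 ± 24.1 CPM (SD, n = 2), and its libraries overlapped with those of OPC anti-miR-ctl, 111.2 ± 7.7 CPM. These orders are a description and carry no test.

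Across the 10 libraries the pattern of Nptxr, as log2(CPM + 1), was most like that of Camkv (Pearson r = 0.9974), a kinase-like vesicle protein, Aldh3a2 (0.9947), a fatty aldehyde dehydrogenase, and Nsun2 (0.9945), an RNA methyltransferase, among 12522 genes. Camkv stood at 13.65 and 11.58 CPM in OPC anti-miR-145, at 3.953 and 3.699 CPM in the OPC controls and at 0.4774 or less in the OL libraries. The pattern of Scg2 was most like that of Ap1s3 (0.9956), an adaptor subunit of Golgi vesicles, Sema6c (0.977), a semaphorin, and Azin2 (0.976), an antizyme inhibitor. Ap1s3 stood at 12.64 and 11.33 CPM in OPC anti-miR-145 and between 1.834 and 3.124 CPM in the other 8 libraries.

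Among the 9 genes themselves, Vgf (0.9409) and Nptx2 (0.9071) were most like Nptxr, and Chgb (0.9391) was most like Scg2. Scg3 and Scg5 had r of -0.1346 and -0.2405 with Nptxr and of -0.0557 and -0.1501 with Scg2. The points are 10 libraries of 5 groups that fall into OLs and OPCs, so these values describe the grouping as much as the genes, and no p is given. They include the OPC anti-miR-145 libraries, for whose high values Nptxr and Scg2 were picked.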

How the data were processed

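Reads had been quantified by the authors with Salmon 0.12.0 on the GENCODE Rnor6.0 transcripts, loaded with tximport, and deposited for the 10 libraries as estimated counts per gene without normalization. Not whole were 16.0% to 17.5% of a library's values, and all were rounded. A second deposited table holds the authors' DESeq2 results, with a mean normalized signal, log2 fold changes, standard errors, a Wald score and p-values, from which only gene symbols were taken.

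Each comparison was fitted on its own 4 libraries in R 4.3.3 with edgeR 4.0.16 (estimateDisp, glmQLFit, glmQLFTest, TMM) where a gene needed 5 or more counts in 2 or more of them. Calls were made at an adjusted p under 0.05 (Benjamini-Hochberg, over all genes tested). The SE is the log2 fold change over the square root of F. Alternatives were DESeq2 1.42.0, its size factors, other filters, all 5 groups in 1 fit, a replicate term and leaving out each library. Levels are not per length, so none was compared between genes.

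Tables and plots used Python 3.11.15, pandas 2.3.3, numpy 2.4.6 and matplotlib 3.10.9. Functions were tested on simulated data. The 9 members and all lists were chosen with earlier results of these data known. All 9 are named in every comparison, and of each list up to 4 called genes of smallest p, with Pcsk1, Pcsk2, Pcsk1n, Cpe, Pam and Gria1 to Gria4 throughout. Named beyond these were Tac1, Pcsk5 and Cpd with the inhibitor and Fos between the control groups. Likeness was searched among genes with a symbol and a mean of at least 1 CPM. Listed genes without a symbol in that table, and mature miRNA levels, were not analysed here, and 1 marker gene is not reported here.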

Additional observations from a re-analysis of the deposited data

How the results depend on the processing

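With 2 libraries per group, calls rest on few degrees of freedom, and genes of low counts such as Scg5, Chga and Nptx1 are the least precise. In a leave-one-out fit the lone library is assumed to vary like the other group. The calls of Vgf and Chgb with the inhibitor held under every alternative.

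For OL miR-145 against OL miR-ctl, the 0 members called became 1 with DESeq2 (Scg3) and 3 with a replicate block (Scg2, Scg3 and Scg5, higher), and the 0 genes called over all genes became 649 and 2272, or 79 with all 5 groups in 1 fit. With both mimics against miR-ctl, the replicate block called 2 members (Vgf and Chgb, higher) and 132 genes, DESeq2 called 106 genes, and no filter on low counts 1. With both mimics against miR-145 the block called 2 members (Vgf and Chgb, higher) and 184 genes, and DESeq2 called 9 genes. Deviations of libraries with the same number correlated at 0.403, 0.467 and 0.632 in these comparisons, at -0.152 for the inhibitor and at 0.0679 for the control groups. Whether replicate numbers stand for shared cultures is not given in the labels, so the block is an alternative only. With the inhibitor the 4 members called were 2 to 5 with 1 library left out, 2 being Vgf and Chgb without either control library, and 3 with the block, where Scg3 lost its call (adjusted p = 0.0724, edgeR). Genes called over all genes were 2348 to 7133 with 1 library left out and 2657 with all 5 groups in 1 fit, against 4348. Between the control groups the 7 members called were 5 to 8 with 1 library left out, and all genes called 4780 to 10306 against 9042.

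Members changed direction only with 1 library left out, and none of these was called. For OL miR-145 against miR-ctl the log2 fold changes ran from -0.39 to 0.18 for Nptxr, -0.69 to 1.27 for Vgf, -0.51 to 0.44 for Chga and -0.12 to 0.81 for Chgb. For both mimics against miR-ctl they ran from -0.29 to 0.29 for Nptxr, -0.13 to 0.22 for Nptx1 and -0.15 to 0.67 for Chga. For both mimics against miR-145 they ran from -0.07 to 0.1 for Nptx2, -0.91 to 0.28 for Scg2, -0.61 to 0.03 for Scg3, -0.76 to 0.55 for Scg5, -0.03 to 2.07 for Vgf and -0.19 to 0.83 for Chga. With the inhibitor Chga ran from -0.08 to 0.2. The cause of these changes was not tested. Of 450 fold changes of members under an alternative, 404 kept direction and side of the threshold, 21 changed direction, 13 lost and 10 gained a call, and 2 of the untested values of Nptxr and Scg2 moved by more than their SE.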
